A study of Mus musculus with 18 samples.

Results

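The 46 genes described here serve mitosis and DNA replication, and they were picked by symbol from a list of cell cycle genes. All 46 were found among the 24346 gene symbols of the deposited tables. Of them, 28 act in mitosis and 18 in the entry into S phase, in DNA replication or in the supply of deoxynucleotides. Expression was measured by sequencing of poly(A) RNA in 3 organs, liver, intestine and lung, taken from male C57BL/6 mice aged 9 weeks. Every mouse had cecal ligation and puncture (CLP), a surgical model of sepsis in which gut bacteria leak into the abdomen. H2 animals inhaled 7% hydrogen gas continuously, starting right after surgery, and control animals had the surgery without the gas. H2 animals shared a cage inside the gas box, so the effects of gas and of housing cannot be told apart. Tissue was collected 24 h after surgery, with 3 libraries in each of the 6 groups and 18 in all. Sham-operated mice are not analysed here, so no level below is that of a healthy organ. The labels do not link libraries to single animals, and p-values therefore describe only the spread between these libraries, which may be technical. The question of each comparison was whether inhaled hydrogen altered the genes in a septic organ, and whether it did so alike in the 3 organs.

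Cell division is driven by cyclins bound to Cdk1, by the kinases Plk1, Aurka and Aurkb, and by the anaphase-promoting complex (APC/C), which ends mitosis by marking cyclins for destruction. Before that, the Mcm helicase opens the DNA, the clamp Pcna holds the polymerases in place, and ribonucleotide reductase (Rrm1 with Rrm2) supplies the building blocks. These genes are transcribed mainly in dividing cells, which are plentiful in intestinal crypts and scarce in resting liver and lung. In whole tissue, fewer dividing cells and less RNA per dividing cell cannot be told apart.

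Promoters are shown first because short motifs near the transcription start were found at different shares in the mitotic members and in the replication and S-phase members. The cell cycle homology region (CHR, TTTGAA) and the CCAAT box are known elements of genes that peak in mitosis, and E2F elements are known from genes that peak at S-phase entry. Both strands were searched for exact matches to the CHR, to the letters of the CCAAT box, and to an E2F element in either of its known forms, of which the first is TTCCCGC while the second is written TTGGCGC, in 300 bases per gene, 250 before and 50 after the start, from RefSeq on GRCm38.p6. The second E2F form can share letters with a CCAAT box read on the other strand. Of the 46 members, 37 had an entry, and Mcm4, Ccna2, Ccne2, Gins2, Pbk, Kif20a, Aurkb, Tpx2 and Foxm1 did not. TTTGAA was found in 18 of 23 mitotic promoters (78.3%), in 2 of 14 replication and S-phase promoters (14.3%) and in 18.1% of all 27025 promoters. A CCAAT box was found in 21 of 23 mitotic promoters (91.3%), in 9 of 14 of the other class (64.3%) and in 37.9% of all. An E2F element was found in 3 of 23 mitotic promoters, in 6 of 14 of the other class (42.9%) and in 6.93% of all. Within 50 bases on either side of the start, TTTGAA stood in 17 of 23 mitotic promoters (73.9%) and in 4.92% of all promoters. The RefSeq start lay within 50 bases of the GENCODE gene start for 27 of the 37 members. A match is a description of letters, not evidence of a bound site.

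The 120 bases before the start are given below, 5′ to 3′ on the strand of the gene, with every match in capitals. The 8 genes were chosen after the matches were seen, 6 of them mitotic genes on which later results turn and the last pair, Mcm6 and Rrm1, as examples of the replication class. They lie at chr2:164769809-164769928 (plus strand) for Ube2c, chr4:118437344-118437463 (minus strand) for Cdc20, chr11:99024190-99024309 (minus strand) for Top2a, chr19:37376262-37376381 (plus strand) for Kif11, chr10:69352913-69353032 (minus strand) for Cdk1, chr7:135716380-135716499 (minus strand) for Mki67, chr1:128359706-128359825 (minus strand) for Mcm6 and chr7:102441575-102441694 (plus strand) for Rrm1.
Ube2c: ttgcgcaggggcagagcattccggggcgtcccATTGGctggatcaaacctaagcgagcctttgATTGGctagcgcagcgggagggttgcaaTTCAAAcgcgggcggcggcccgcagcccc
Cdc20: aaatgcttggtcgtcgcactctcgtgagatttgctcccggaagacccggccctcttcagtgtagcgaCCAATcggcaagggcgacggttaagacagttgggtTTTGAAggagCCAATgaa
Top2a: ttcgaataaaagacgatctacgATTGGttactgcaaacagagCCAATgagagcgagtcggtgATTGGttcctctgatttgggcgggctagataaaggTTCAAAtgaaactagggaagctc
Kif11: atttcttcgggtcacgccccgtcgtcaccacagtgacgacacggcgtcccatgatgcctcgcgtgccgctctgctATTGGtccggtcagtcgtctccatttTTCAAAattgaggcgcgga
Cdk1: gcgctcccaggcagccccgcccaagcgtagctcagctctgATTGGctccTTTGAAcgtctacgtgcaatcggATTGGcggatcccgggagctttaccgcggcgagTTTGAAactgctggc
Mki67: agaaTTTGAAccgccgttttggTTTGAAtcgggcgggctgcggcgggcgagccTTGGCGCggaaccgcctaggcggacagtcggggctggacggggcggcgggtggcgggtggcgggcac
Mcm6: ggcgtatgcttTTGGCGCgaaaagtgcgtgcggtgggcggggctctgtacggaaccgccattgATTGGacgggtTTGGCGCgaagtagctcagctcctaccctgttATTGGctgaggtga
Rrm1: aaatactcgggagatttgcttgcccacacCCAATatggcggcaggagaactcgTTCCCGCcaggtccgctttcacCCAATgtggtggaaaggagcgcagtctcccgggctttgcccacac
Ube2c, Cdc20, Top2a, Kif11 and Cdk1 each held a TTTGAA, on either strand, close to the start, with at least 1 CCAAT box upstream of it. Mki67 held a pair of CHR matches farther from the start and an E2F match nearer to it. Mcm6 and Rrm1 held matches to the CCAAT box and to E2F but none to the CHR in these bases.

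The libraries matched their organ labels: Alb, the liver's albumin, was at least 9335 FPKM in liver and at most 5.95 elsewhere, the intestinal brush-border gene Vil1 at least 332 and at most 0.450, and the lung surfactant gene Sftpc at least 20779 and at most 1.17. The tables hold FPKM (fragments per kilobase of transcript, scaled by library size) without read counts. The depth implied by the smallest FPKM steps was 8.51 to 15.5 M fragments, at which 1 fragment in a 3 kb transcript equals 0.0215 to 0.0392 FPKM. H2 intestine 2 had the lowest implied depth and a summed FPKM of 1142966, against 712858 to 850609 in the other intestine libraries. Changes below are H2 minus control on the log2(FPKM + 1) scale, ± SE, with n = 3 per group. This scale understates the change of genes at a few FPKM. Limma was fitted over all genes that averaged 1 FPKM or more, and a gene was called at a Benjamini-Hochberg adjusted p under 0.05.

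In untreated septic mice the mitotic genes were most abundant in the intestine, intermediate in the lung and close to 0 in the liver. Their summed level was 335 ± 29.7 FPKM (SD, n = 3) in control intestine, 99.7 ± 21.0 in control lung and 6.11 ± 1.18 in control liver. The summed levels of the 18 replication and S-phase genes were nearer to each other in intestine and lung, at 246 ± 33.6, 212 ± 24.0 and 43.5 ± 11.6 FPKM. Pcna alone made up 97.0, 112 and 25.1 FPKM of these sums, so they mostly follow this 1 gene. Of the 46 members, 42 had their highest control mean in the intestine. The other 4 were highest in the lung, namely the S-phase regulator E2f1, the helicase subunits Mcm3 and Mcm4, and Pcna. The lowest control mean was in the liver for 45 members, Ccne1 being the exception.

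**Figure D1:**
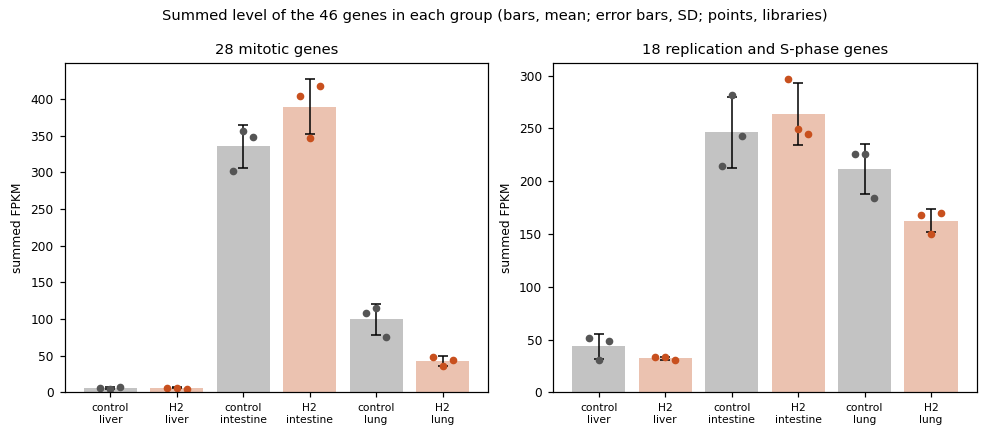
Summed FPKM of the 28 mitotic genes (left) and of the 18 replication and S-phase genes (right) in each group; bars are means of 3 libraries, error bars SD and points libraries. The mitotic sum of the lung was 99.7 in control and 42.7 in H2 libraries, while in the intestine it was 335 and 389.7 and in the liver it stayed near 6 in both.

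Among the mitotic genes, Pbk, a kinase active in mitosis, had the smallest p between intestine and liver and between intestine and lung. Pbk measured 11.3, 14.9 and 13.6 FPKM in control intestine 1, 2 and 3, 1.76, 1.11 and 1.19 FPKM in control lung and 0, 0 and 0.056 FPKM in control liver. Prc1, which bundles the microtubules of the central spindle, measured 7.59, 8.04 and 9.33 FPKM in control intestine 1, 2 and 3, 2.58, 2.48 and 2.07 FPKM in control lung and 0.082, 0.139 and 0.118 FPKM in control liver. Top2a, the topoisomerase that untangles replicated chromosomes, measured 30.5, 34.4 and 36.99 FPKM in control intestine 1, 2 and 3, 7.296, 9.197 and 4.03 FPKM in control lung and 0.268, 0.152 and 0.21 FPKM in control liver. For all 3 genes every intestine library was above every lung library and every lung library above every liver library. Ube2c, the ubiquitin-conjugating enzyme of the APC/C, measured 30.7, 41.3 and 37.7 FPKM in control intestine 1, 2 and 3, 8.204, 9.91 and 6.98 FPKM in control lung and 0.206, 0.106 and 0.338 FPKM in control liver. Cdca3, a trigger of mitotic entry, measured 22.4, 21.5 and 22.99 FPKM in control intestine 1, 2 and 3, 6.75, 7.67 and 4.29 FPKM in control lung and 0.699, 0.774 and 0.698 FPKM in control liver. Mki67, which encodes the proliferation marker Ki-67, measured 14.9, 16.9 and 15.99 FPKM in control intestine 1, 2 and 3, 5.73, 5.501 and 3.23 FPKM in control lung and 0.242, 0.115 and 0.279 FPKM in control liver. The same order without overlap was seen in these 3. Kif11, the motor that separates the spindle poles, measured 6.93, 7.93 and 9.93 FPKM in control intestine 1, 2 and 3, 2.17, 2.63 and 1.53 FPKM in control lung and 0.097, 0.082 and 0.14 FPKM in control liver. Ccnb1, the cyclin that activates Cdk1 for mitosis, measured 13.8, 13.4 and 16.3 FPKM in control intestine 1, 2 and 3, 3.43, 5.02 and 2.71 FPKM in control lung and 0.248, 0.108 and 0.038 FPKM in control liver. Ccna2, the cyclin of S phase and early mitosis, measured 15.9, 24.03 and 21.7 FPKM in control intestine 1, 2 and 3, 6.902, 7.11 and 5.76 FPKM in control lung and 0.831, 0.555 and 0.965 FPKM in control liver. In these 3 as well the ranges of the organs did not touch. Cdca8, a subunit of the chromosomal passenger complex, measured 10.03, 14.9 and 13.5 FPKM in control intestine 1, 2 and 3, 3.81, 3.83 and 2.72 FPKM in control lung and 0, 0.107 and 0.172 FPKM in control liver. Ccnb2, the companion of Ccnb1, measured 13.9, 15.5 and 16.4 FPKM in control intestine 1, 2 and 3, 6.48, 6.68 and 4.57 FPKM in control lung and 0.224, 0.057 and 0.244 FPKM in control liver. Nusap1, a microtubule-binding protein of the spindle, measured 9.42, 7.71 and 9.12 FPKM in control intestine 1, 2 and 3, 2.505, 3.67 and 2.05 FPKM in control lung and 0.112, 0.086 and 0.324 FPKM in control liver. Again intestine, lung and liver followed each other without overlap.

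Cenpe, a kinetochore motor, measured 3.05, 3.44 and 4.64 FPKM in control intestine 1, 2 and 3, 0.803, 0.897 and 0.42 FPKM in control lung and 0.088, 0.04 and 0.021 FPKM in control liver. Ttk, the checkpoint kinase, measured 2.14, 3.49 and 3.07 FPKM in control intestine 1, 2 and 3, 0.744, 0.516 and 0.661 FPKM in control lung and 0, 0 and 0 FPKM in control liver where it was listed at 0 in every library. Tpx2, which recruits Aurka to the spindle, measured 6.29, 5.83 and 7.18 FPKM in control intestine 1, 2 and 3, 2.73, 2.36 and 1.86 FPKM in control lung and 0.264, 0.019 and 0.102 FPKM in control liver. These genes kept the order of the organs. Rrm1, the large subunit of ribonucleotide reductase, measured 13.99, 18.9 and 15.4 FPKM in control intestine 1, 2 and 3, 11.9, 12.9 and 10.9 FPKM in control lung and 2.73, 1.88 and 2.03 FPKM in control liver. Its intestinal and lung values lay close together, and both were several times the liver values.

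In 1 fit of all 18 libraries, which tested 44 members, 43 were called higher in control intestine than in control liver, against 60.0% of all genes called higher and 12.6% called lower. Against control lung, 36 were called higher in control intestine, against 17.6% of all genes, and none was called lower, against 51.3%. Control lung was called above control liver for 43, against 76.0% of all genes, and for none below it, against 9.15%. A share of 76.0% over all genes leaves little to read from these genes in particular. Of the 46 members, 36 were under a mean of 1 FPKM in the liver and 7 in the lung. Where tested here, such members passed the filter only through organs in which they were higher. Their place in these counts was thus partly fixed by the filter. The median of all genes was itself shifted, by 0.64 between intestine and liver, by -0.45 between intestine and lung and by 1.17 between lung and liver. Members above that shift numbered 43, 44 and 35 of 44. Differences were 2.60 ± 0.13 for Pbk, 2.21 ± 0.19 for Top2a and 2.01 ± 0.20 for Ube2c between intestine and lung, while Pcna (-0.23 ± 0.21), Mcm7 (0.09 ± 0.24) and Mcm3 (-0.11 ± 0.31) were not called. Ccne1, a cyclin of S-phase entry, was the member not called in either comparison with the liver (0.46 ± 0.27 for intestine and -0.16 ± 0.27 for lung). The 3 comparisons share their control libraries. Between lung and liver, quantile normalization left 18 members called higher and 3 lower (Ccne1, Ccne2 and Tyms), and median-of-ratios scaling left 39 higher and 1 lower (Ccne1).

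In the lung, levels of the mitotic genes were lower in the H2 libraries than in the controls, although no member passed the adjusted threshold. All 28 mitotic members had a lower mean on the log2 scale in H2 than in control lungs, with a median change of -0.74, and 17 of the 18 replication and S-phase members did, with a median of -0.38. E2f1 was the exception. The summed level of the mitotic genes was 109, 115 and 75.6 FPKM in control lung 1, 2 and 3 and 48.4, 35.9 and 44.0 FPKM in H2 lung 1, 2 and 3. The sum of the replication and S-phase genes was 226, 226 and 184 FPKM against 168, 150.2 and 169.9 FPKM. Neither pair of groups overlapped, and control lung 3 was the control nearest to the H2 libraries. Pcna alone was the largest part of the replication sum in every lung. Over all tested genes the median change was -0.0036, and 50.5% of them were below 0. No member was called, against 0.00745% of all genes (1 of 13424). With unadjusted p under 0.05 there were 27 members among the 39 that averaged 1 FPKM or more, against 23.1% of all genes (3095). Groups did not overlap, with H2 lower, for 28 of those 39 and 33 of all 46 members, against 15.9% of all genes tested, and no member was higher without overlap, against 14.1%.

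**Figure D2:**
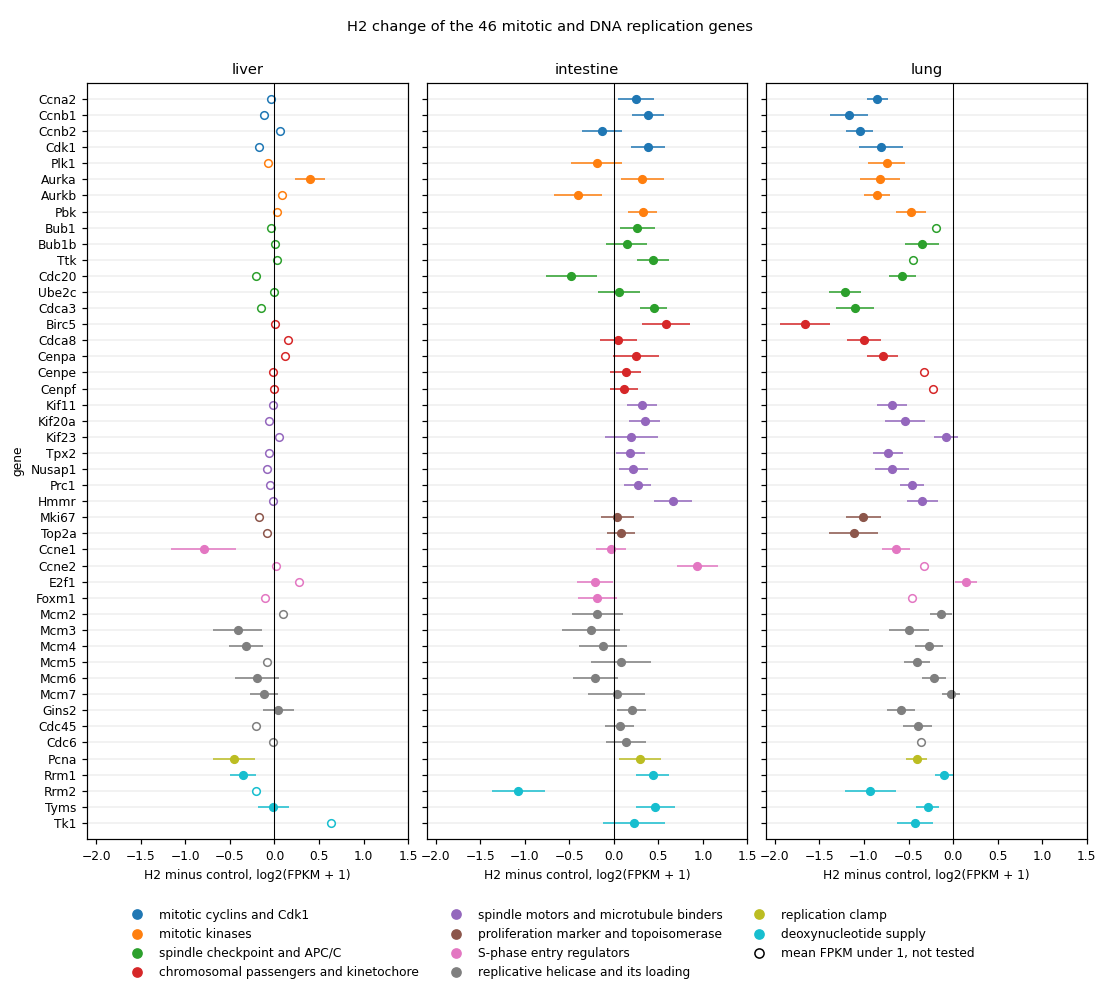
H2 change of each of the 46 genes in liver, intestine and lung, in log2(FPKM + 1) with SE from limma on 3 against 3 libraries; colours mark the role of the gene and open points genes under a mean FPKM of 1, shown without error. Points of the lung lie to the left of 0 for 45 of 46 genes, and those of the intestine to the right for 34.

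The mitotic cyclins and Cdk1 all had lower levels in the H2 lungs. Ccna2 measured 6.902, 7.11 and 5.76 FPKM in control lung 1, 2 and 3 and 3.499, 2.95 and 3.15 FPKM in H2 lung 1, 2 and 3, a change of -0.85 ± 0.12. Ccnb1 measured 3.43, 5.02 and 2.71 FPKM in control lung 1, 2 and 3 and 1.399, 0.792 and 1.03 FPKM in H2 lung 1, 2 and 3, a change of -1.17 ± 0.21. Ccnb2 measured 6.48, 6.68 and 4.57 FPKM in control lung 1, 2 and 3 and 2.11, 2.38 and 2.42 FPKM in H2 lung 1, 2 and 3, a change of -1.05 ± 0.15. For all 3 cyclins the highest H2 value was below the lowest control value. Cdk1, the kinase they activate, was at -0.81 ± 0.25. Among the mitotic kinases, Aurkb, the kinase of the chromosomal passenger complex, measured 1.895, 2.07 and 1.82 FPKM in control lung 1, 2 and 3 and 0.45, 0.604 and 0.838 FPKM in H2 lung 1, 2 and 3, a change of -0.85 ± 0.15. The most abundant of these kinases across the study, Pbk, measured 1.76, 1.11 and 1.19 FPKM in control and 0.866, 0.542 and 0.653 FPKM in H2 lungs (-0.47 ± 0.17). Neither gene overlapped between groups, and the 4 kinases ran from -0.85 (Aurkb) to -0.47 (Pbk). The adjusted p was 0.172 for the 3 cyclins, for Aurkb, and also for Ube2c, Birc5, Cdca8 and Mki67 below, whose unadjusted p in limma was the smallest among the members (0.000235 for Ccna2 to 0.00149 for Mki67).

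Of the spindle checkpoint and APC/C genes, Ube2c measured 8.204, 9.91 and 6.98 FPKM in control lung 1, 2 and 3 and 3.897, 2.46 and 2.76 FPKM in H2 lung 1, 2 and 3, a change of -1.22 ± 0.18. The kinase Ttk was under 1 FPKM in each lung, at 0.744, 0.516 and 0.661 FPKM in control and 0.183, 0.268 and 0.139 FPKM in H2 lungs. Both genes were lower in each H2 lung than in any control lung. The other 4 genes of this role, Bub1, Bub1b, Cdc20 and Cdca3, were between -1.10 (Cdca3) and -0.19 (Bub1). Among the passenger and kinetochore genes, Birc5 (survivin) measured 12.8, 12.96 and 8.56 FPKM in control lung 1, 2 and 3 and 4.22, 1.601 and 3.25 FPKM in H2 lung 1, 2 and 3, a change of -1.66 ± 0.28. Cdca8 measured 3.81, 3.83 and 2.72 FPKM in control lung 1, 2 and 3 and 1.48, 0.785 and 1.45 FPKM in H2 lung 1, 2 and 3, a change of -0.999 ± 0.19. Birc5 had the largest change of the 46 members, and H2 lung 2 was the lowest library for both. Cenpa, the histone of the centromere, was at -0.79 ± 0.17, and the kinetochore genes Cenpe and Cenpf were under a mean of 1 FPKM.

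The 7 spindle motors and microtubule binders had a median change of -0.54 in the lung. Nusap1 measured 2.505, 3.67 and 2.05 FPKM in control lung 1, 2 and 3 and 1.33, 1.05 and 1.503 FPKM in H2 lung 1, 2 and 3, a change of -0.69 ± 0.19. Kif11 measured 2.17, 2.63 and 1.53 FPKM in control and 0.995, 0.868 and 0.865 FPKM in H2 lungs, and Tpx2 2.73, 2.36 and 1.86 against 1.29, 0.802 and 0.887 FPKM. These 3 were lower in every H2 lung, and across the 7 genes of the role the changes ran from -0.73 (Tpx2) to -0.08 (Kif23, a motor of the central spindle). Levels of the proliferation marker and of the topoisomerase were lower as well. Mki67 measured 5.73, 5.501 and 3.23 FPKM in control lung 1, 2 and 3 and 1.95, 1.69 and 1.87 FPKM in H2 lung 1, 2 and 3, a change of -1.01 ± 0.20. Top2a measured 7.296, 9.197 and 4.03 FPKM in control lung 1, 2 and 3 and 2.71, 1.89 and 2.89 FPKM in H2 lung 1, 2 and 3, a change of -1.12 ± 0.27 (adjusted p = 0.172). Control lung 3 lay between the other controls and the H2 libraries for both genes.

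**Figure D3:**
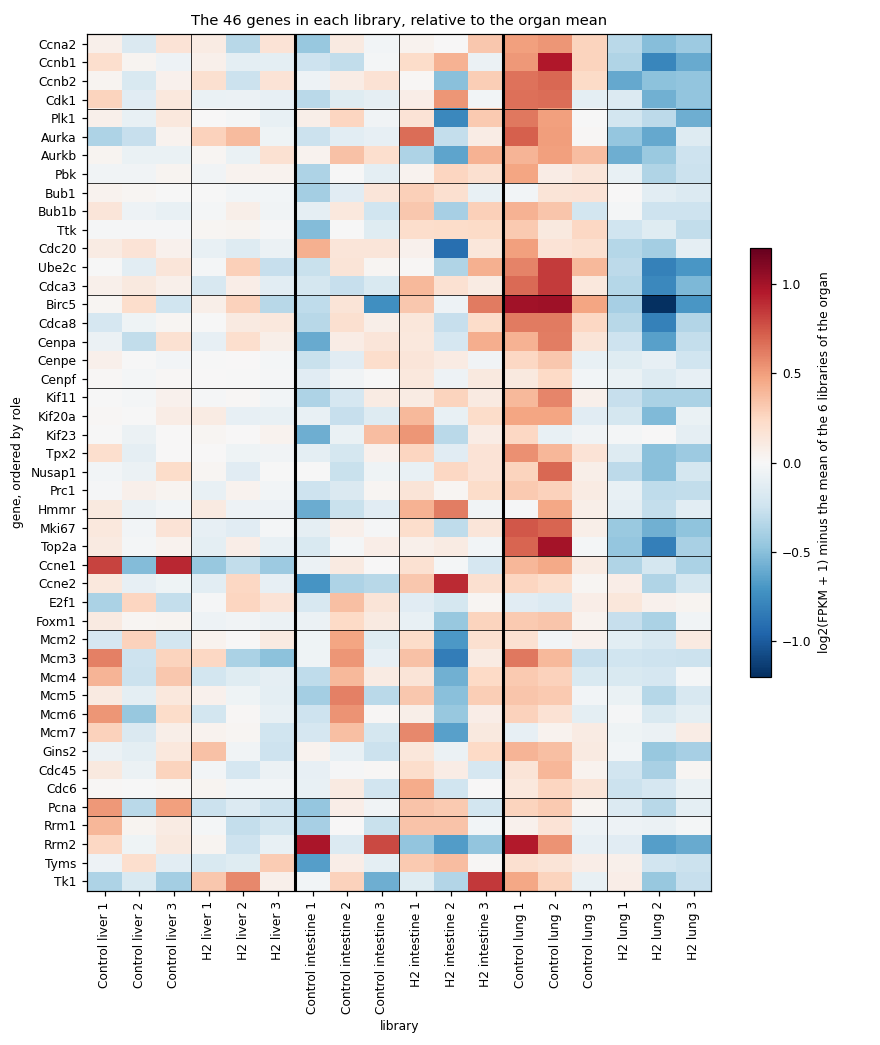
Each of the 46 genes in each of the 18 libraries, as log2(FPKM + 1) minus the mean of the 6 libraries of that organ, red above and blue below it; horizontal lines part the role groups. In the lung, control lung 1 and 2 are red and the H2 libraries blue for most genes while control lung 3 is paler, and in the intestine H2 intestine 2 is blue for 7 of the 9 helicase genes, where it had the lowest of the 6 values.

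Replication and S-phase genes differed less between the lung groups, and some were level. Pcna measured 117, 121 and 99.4 FPKM in control lung 1, 2 and 3 and 86.5, 77.1 and 89.5 FPKM in H2 lung 1, 2 and 3, a change of -0.41 ± 0.12. Rrm2, the small subunit of ribonucleotide reductase, measured 6.9, 4.94 and 2.82 FPKM in control lung 1, 2 and 3 and 2.73, 1.58 and 1.695 FPKM in H2 lung 1, 2 and 3, a change of -0.93 ± 0.29. For Pcna and Rrm2 each H2 library was below each control library. Pcna and Tyms have processed pseudogenes, and no source used here says how reads shared with them were assigned. The partner subunit Rrm1 measured 11.9, 12.9 and 10.9 FPKM in control and 10.9, 10.9 and 11.2 FPKM in H2 lungs (-0.10 ± 0.10), and Mcm7 measured 13.4, 14.9 and 15.4 against 13.9, 13.7 and 15.3 FPKM (-0.03 ± 0.10). Both groups of libraries overlapped, and the sign of Mcm7 turned under quantile normalization (0.0033). E2f1 measured 2.595, 2.52 and 3.17 FPKM in control and 3.32, 3.08 and 3.03 FPKM in H2 lungs (0.14 ± 0.12), with overlapping groups. The 9 helicase and loading genes were all below 0, from -0.59 (Gins2) to -0.03 (Mcm7). Of the remaining genes grouped here under S-phase entry, Ccne1 was at -0.64 ± 0.16. Ccne2 and Foxm1, under a mean of 1 FPKM, were lower in mean too.

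The lung result depended on control lung 3, which was the lowest control for 36 of the 46 members. Without it, 28 of 38 members were called lower, against 12.6% of all genes, with changes such as -1.199 ± 0.11 for Ccnb2 (adjusted p = 0.00569 in limma) and -1.22 ± 0.12 for Mki67 (adjusted p = 0.00573 in limma). None was called without any other single lung library. With the spread estimated from all 18 libraries and all 6 lungs kept, 15 of 44 were called lower, against 2.01% of all genes. All 15 were mitotic genes, among them Cdca3, Ccnb1, Mki67, Birc5, Ube2c and Top2a. That spread takes in the liver, where all 15 were under a mean of 1 FPKM and could vary little on this scale. Their SE in this fit may therefore be too small for the lung. Control lung 3 also stood apart in fat cell markers, whose sum was 870.2 FPKM there and 95.5 to 202 FPKM in the other 5 lungs, and the part of this in the members' values was not tested.

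Genes of neutrophil precursors differed between the same lung libraries. The granule protease Elane measured 6.49, 4.79 and 1.25 FPKM in control and 0, 0.313 and 0.083 FPKM in H2 lungs, Prtn3 measured 13.5, 13.7 and 6.62 against 2.49, 3.87 and 3.16 FPKM, and Ctsg measured 4.28, 5.698 and 0.28 against 0.33, 0.07 and 0.074 FPKM. Mpo measured 1.64, 1.37 and 0.127 against 0.028, 0.095 and 0.05 FPKM. Control lung 3 was the lowest control for these 4 of the 7 markers, and for Ctsg it lay below H2 lung 1. Elane was listed at 0 in H2 lung 1. Of the 7 markers of the list 6 were tested, all below 0 with a median of -1.25, and none was called. Unadjusted p in limma was under 0.05 for 5 of these 6, against 23.1% of all genes. The summed level of the 7 was 1295, 1196 and 1284 FPKM in control lung 1, 2 and 3 and 812, 996 and 887 FPKM in H2 lung 1, 2 and 3. Over the whole list control lung 2, not control lung 3, was the lowest control. The 5 mature neutrophil markers had a median of 0.17 and sums of 17947 to 27970.4 and of 18193 to 30828 FPKM. Monocyte and macrophage markers had a median of -0.42 over 5, with sums of 212 to 338 and of 168 to 188 FPKM, and T cell markers had a median of -0.35 over 3 of the 5 found, with sums of 9.61 to 12.8 and of 6.80 to 8.94 FPKM. Endothelial markers were higher in mean in H2 lungs, 5 of 5 with a median of 0.81 and sums of 439.6 to 562 and of 559 to 831 FPKM. No marker of these lists was called in the lung alone, and their part in the lower mitotic genes was not tested.

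**Figure D4:**
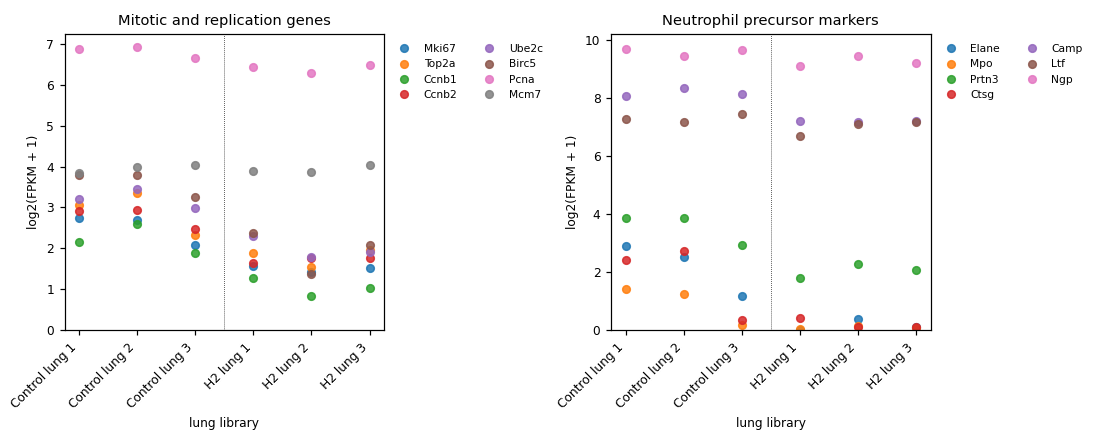
Level in log2(FPKM + 1) of 8 of the 46 genes (left) and of the 7 neutrophil precursor markers (right) in each lung library, 1 point per gene and library. Mitotic genes and the markers Elane, Prtn3, Ctsg and Mpo are highest in control lung 1 or 2 and lower in control lung 3, where Ctsg is below H2 lung 1, while Mcm7 is level. Summed over all 7 markers, with Camp, Ltf and Ngp, control lung 2 is the lowest control at 1196 FPKM, against 1295 in control lung 1 and 1284 in control lung 3.

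In the intestine, by contrast, most members were slightly higher with H2, and none was called. Of the 46 genes 34 had a higher mean, 24 of them among the 28 mitotic genes, and the median change was 0.17 over all members, 0.23 over mitotic genes and 0.05 over replication and S-phase genes. Over all tested genes the median was 0.02, with 52.2% above 0. All 46 passed the filter. Called genes were 0.0084% of all genes (1 of 11910), and 6 members had unadjusted p under 0.05 in limma, against 12.5% of all genes (1485). Groups did not overlap with H2 higher for 9 members, against 10.6% of all genes, and with H2 lower for 2, against 8.75%.

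The subunits of ribonucleotide reductase differed in opposite directions there. Rrm2 measured 33.6, 14.6 and 29.4 FPKM in control intestine 1, 2 and 3 and 11.7, 10.04 and 11.7 FPKM in H2 intestine 1, 2 and 3, a change of -1.07 ± 0.29 (adjusted p = 0.352). Rrm1 measured 13.99, 18.9 and 15.4 FPKM in control intestine 1, 2 and 3 and 24.02, 24.1 and 18.3 FPKM in H2 intestine 1, 2 and 3, a change of 0.44 ± 0.19. Rrm2 was lower in each H2 library than in any control, whereas for Rrm1 H2 intestine 3 lay below control intestine 2. The other deoxynucleotide genes, Tyms, which makes thymidylate, and Tk1, thymidine kinase, were higher in mean. Among regulators of S-phase entry, Ccne2 measured 0.861, 1.36 and 1.41 FPKM in control intestine 1, 2 and 3 and 2.795, 4.64 and 2.47 FPKM in H2 intestine 1, 2 and 3, a change of 0.94 ± 0.23 (adjusted p = 0.344). E2f1 measured 1.51, 2.696 and 2.21 FPKM in control and 1.62, 1.49 and 1.93 FPKM in H2 intestine (-0.21 ± 0.20). Ccne2 was higher in each H2 library than in any control, and E2f1 overlapped. Pcna measured 76.4, 112 and 103 against 134, 132 and 91.1 FPKM (0.29 ± 0.23), and Mcm7 13.5, 20.5 and 13.4 against 23.98, 9.65 and 17.1 FPKM (0.03 ± 0.32). Both overlapped. The 9 helicase genes lay between -0.25 (Mcm3) and 0.20 (Gins2), and H2 intestine 2 was the lowest of the 6 libraries for 7 of them.

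Mitotic genes of the intestine with the smallest p were Hmmr, Cdca3 and Ttk. Hmmr, a microtubule-binding protein of the spindle, measured 3.77, 4.95 and 5.53 FPKM in control intestine 1, 2 and 3 and 8.62, 10.02 and 5.997 FPKM in H2 intestine 1, 2 and 3, a change of 0.67 ± 0.22. Cdca3 measured 22.4, 21.5 and 22.99 FPKM in control intestine 1, 2 and 3 and 34.6, 29.9 and 28.02 FPKM in H2 intestine 1, 2 and 3, a change of 0.45 ± 0.16. Ttk measured 2.14, 3.49 and 3.07 FPKM in control intestine 1, 2 and 3 and 4.22, 4.22 and 4.27 FPKM in H2 intestine 1, 2 and 3, a change of 0.44 ± 0.18. All 3 were higher in every H2 library than in any control library. Birc5 measured 20.6, 28.8 and 15.1 FPKM in control intestine 1, 2 and 3 and 32.5, 24.6 and 40.05 FPKM in H2 intestine 1, 2 and 3, a change of 0.59 ± 0.27. Ccnb1 measured 13.8, 13.4 and 16.3 FPKM in control intestine 1, 2 and 3 and 19.6, 22.6 and 15.8 FPKM in H2 intestine 1, 2 and 3, a change of 0.38 ± 0.18. These 2 overlapped, since H2 intestine 2 was low for Birc5 and H2 intestine 3 for Ccnb1. Ccna2 measured 15.9, 24.03 and 21.7 against 22.9, 22.2 and 27.95 FPKM (0.25 ± 0.20), and Pbk 11.3, 14.9 and 13.6 against 15.3, 17.96 and 17.1 FPKM (0.33 ± 0.16). Pbk alone of this pair did not overlap. Ube2c (30.7, 41.3 and 37.7 against 37.4, 28.7 and 49.97 FPKM), Top2a (30.5, 34.4 and 36.99 against 36.3, 37.4 and 34.1 FPKM) and Nusap1 (9.42, 7.71 and 9.12 against 8.85, 11.4 and 10.8 FPKM) had changes of 0.05 ± 0.24, 0.08 ± 0.16 and 0.22 ± 0.16. Those of Ube2c and Top2a turned to -0.02 and -0.03 under quantile normalization. Cdc20, the activator of the APC/C, was the lowest mitotic member at -0.48 ± 0.28, with 17.1, 13.9 and 13.9 FPKM in control and 12.99, 6.22 and 13.9 FPKM in H2 intestine. H2 intestine 2 stood apart there, and the highest H2 value was 13.88 against a lowest control value of 13.94.

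H2 intestine 2 differed from the other intestine libraries in its members as in its total. It was the lowest of the 6 for 18 members and the highest for 10. Its enterocyte markers summed to 8619 FPKM, against 2951 and 3509 in the other H2 and 1339 to 3822 in the control libraries. Its Paneth cell markers summed to 67108 FPKM, against 17289 to 34869.5 in the other 5 libraries, and its goblet cell markers to 15721 FPKM, against 7509 to 11055. Paneth cell markers had a median change of 0.72, 5 of 5 above 0, and goblet cell markers one of 0.33, 4 of 5 above 0. Enterocyte markers had a median change of 1.01, 5 of 5 above 0, and fat cell markers a median of -1.26, 4 of 4 below 0. The sums of crypt stem cell markers were 77.5, 117 and 71.7 FPKM in control and 82.8, 79.4 and 153 FPKM in H2 libraries, with a median change of 0.03 over 8. No marker of these lists was called, and their part in the members' values was not tested. Without control intestine 2, Rrm2 was called lower in limma (-1.42 ± 0.19, adjusted p = 0.0472), against 0.16% of all genes called lower. With all 18 libraries in 1 fit, Ccne2 was called higher in limma (0.94 ± 0.18, adjusted p = 0.0222), against 0.995%. The spread of that fit takes in the liver, where Ccne2 was under a mean of 1 FPKM.

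In the liver, only replication genes and 1 mitotic kinase were high enough to be tested. Of the 46 members 36 were under a mean of 1 FPKM, 27 of them mitotic, and 31 were lower in mean with H2. No member was called, against 0.0199% of all genes (2 of 10041), and 1 had unadjusted p under 0.05 in limma, against 21.0% of all genes (2113). Rrm1 measured 2.73, 1.88 and 2.03 FPKM in control liver 1, 2 and 3 and 1.77, 1.32 and 1.42 FPKM in H2 liver 1, 2 and 3, a change of -0.36 ± 0.14 (adjusted p = 0.225). It was the member of the 10 tested whose groups did not overlap, against 13.1% of all genes lower without overlap. Aurka measured 0.618, 0.721 and 1.153 FPKM in control liver 1, 2 and 3 and 1.52, 1.71 and 1.01 FPKM in H2 liver 1, 2 and 3, a change of 0.40 ± 0.17. Ccne1 measured 2.73, 0.479 and 2.97 FPKM in control liver 1, 2 and 3 and 0.555, 0.728 and 0.566 FPKM in H2 liver 1, 2 and 3, a change of -0.79 ± 0.37. Pcna measured 29.8, 16.2 and 29.2 FPKM in control liver 1, 2 and 3 and 17, 18.2 and 17.1 FPKM in H2 liver 1, 2 and 3, a change of -0.45 ± 0.23. For Ccne1 and Pcna, control liver 2 was below all H2 libraries, while control liver 1 and 3 were above all of them. Mcm3 (2.28, 0.823 and 1.604 against 1.58, 0.665 and 0.537 FPKM, -0.41 ± 0.28) and Mcm4 (1.72, 0.719 and 1.56 against 0.758, 0.852 and 0.903 FPKM, -0.32 ± 0.19) had their lowest control value in control liver 2 too. Mcm6 measured 2.33, 0.677 and 1.69 against 0.978, 1.32 and 1.17 FPKM (-0.20 ± 0.25) and Mcm7 4.26, 2.85 and 3.56 against 3.48, 3.41 and 2.67 FPKM (-0.12 ± 0.15), with control liver 2 again the lowest control. Of the 10 members tested, 8 had their lowest control value in control liver 2. Without it 3 members were called lower, Ccne1 (-1.25 ± 0.12), Pcna (-0.73 ± 0.10) and Mcm4 (-0.52 ± 0.12), against 13.5% of all genes. Among the untested members, Tk1, singled out after its values were seen, measured 0.396, 0.591 and 0.36 FPKM in control and 1.25, 1.68 and 0.878 FPKM in H2 liver, with every H2 value above every control value. Over all 46 members, groups did not overlap with H2 higher for 2, against 12.2% of all tested genes. With H2 lower they did not overlap for 4, against 13.1%.

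Averaged over the 3 organs, 7 of 44 members were called lower, against 5.23% of all genes, and none higher, against 4.39%. Mitotic genes made up 6 of the 7, and Rrm2 was the other. All 7 were under 1 FPKM in every liver library and were not tested there, so the liver part of these means rests on values near the floor. In the intestine Mki67, Top2a and Ube2c were slightly above 0 (0.04, 0.08 and 0.05), so their lower means came mainly from the lung. Rrm2 had the largest mean change, -0.74 ± 0.16 (adjusted p = 0.0177), and besides the intestinal and lung values above it measured 0.907, 0.54 and 0.74 FPKM in control and 0.633, 0.344 and 0.501 FPKM in H2 liver. Its groups overlapped in the liver alone. Rrm2 was called in all 8 other settings and in all 18 fits that left out a library, the other 6 in 2 to 7 of those 18. Mki67 fell by a mean of 0.38 (SE 0.10, adjusted p = 0.029), with 14.9, 16.9 and 15.99 FPKM in control and 18.9, 12.9 and 17.99 FPKM in H2 intestine, and Ccnb2 fell by 0.37 (SE 0.11), with 13.9, 15.5 and 16.4 against 14.6, 9.95 and 17.96 FPKM there. Intestinal values of both overlapped, and their changes in the intestine alone were 0.04 ± 0.18 and -0.13 ± 0.22. Cdc20 (-0.42 ± 0.12) measured 4.43, 3.31 and 3.39 FPKM in control and 2.04, 1.91 and 2.57 FPKM in H2 lungs, a change of -0.57 ± 0.15 without overlap. Aurkb (-0.39 ± 0.12) measured 6.12, 7.84 and 6.93 against 4.33, 3.44 and 8.19 FPKM in the intestine. Top2a and Ube2c were at -0.37 ± 0.11 and -0.39 ± 0.12. Ccne1 (-0.49 ± 0.15, adjusted p = 0.0563) came next and was not called, with 1.65, 1.75 and 1.147 against 0.562, 0.732 and 0.537 FPKM in the lung and 2.63, 3.12 and 2.82 against 3.34, 2.74 and 2.31 FPKM in the intestine. The count of 7 became 15 without control lung 3, against 10.7% of all genes. It became 1 without control liver 1 or 3, H2 liver 1, 2 or 3, control intestine 3, control lung 1 or 2, or H2 lung 1, 2 or 3. It was 2 to 4 without control intestine 1 or 2 or H2 intestine 1 or 2. It was 1 with a pseudocount of 5, 2 without a filter on low values and 3 under median-of-ratios scaling. Of the cell type markers, Kdr, Emcn and Tek of endothelium and Spink4 of goblet cells were called higher on the mean, and Ly6c2 of monocytes and Fabp4 of fat were called lower. Their part in the members' means was not tested.

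The H2 change itself differed between intestine and lung. Of 44 members 13 had a higher change in the intestine at an adjusted p under 0.05, against 0.771% of all genes, and none a lower one, against 0.471%. Of the 13, 12 were mitotic genes, and the other was Ccne2. Ttk and Ccne2 were under a mean of 1 FPKM in the lung, were not tested there alone, and passed the filter only through the intestine. The difference in H2 change was 2.25 ± 0.39 for Birc5 (adjusted p = 0.0176 in limma), 1.55 ± 0.25 for Ccnb1 (0.0142) and 1.55 ± 0.23 for Cdca3 (0.00954). Cdca3 measured 6.75, 7.67 and 4.29 FPKM in control and 2.82, 1.82 and 2.34 FPKM in H2 lungs, opposite in direction to the intestinal values above and without overlap in either organ. It was called in all 8 other settings and all 18 fits that left out a library, Ccnb1 in 6 and 18 of them and Birc5 in 7 and 16. The remaining genes of the 13 were less stable. They were called in 2 to 5 of the other settings and in 2 (Top2a) to 9 (Kif11 and Ttk) of the fits that left out a library.

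Kif11 measured 6.93, 7.93 and 9.93 FPKM in control and 9.94, 11.3 and 10.1 FPKM in H2 intestine, and its difference was 1.003 ± 0.19. Prc1 measured 7.59, 8.04 and 9.33 against 10.3, 9.38 and 10.9 FPKM in the intestine and 2.58, 2.48 and 2.07 against 1.698, 1.32 and 1.35 FPKM in the lung (0.73 ± 0.16). Tpx2 measured 6.29, 5.83 and 7.18 against 8.43, 6.19 and 7.85 FPKM in the intestine (0.92 ± 0.20). These 3 spindle genes were lower without overlap in H2 lungs, whereas in the intestine Kif11 and Prc1 were higher without overlap and Tpx2 overlapped. Ccne2 measured 0.928, 0.864 and 0.633 FPKM in control and 0.698, 0.257 and 0.396 FPKM in H2 lungs, with overlap, and differed by 1.26 ± 0.26. The differences were 1.27 ± 0.29 for Ube2c, 1.2 ± 0.27 for Top2a, 1.10 ± 0.24 for Ccna2, 1.05 ± 0.23 for Mki67, 0.89 ± 0.18 for Ttk and 0.80 ± 0.18 for Pbk. Of these, Ttk and Pbk were higher in the intestine without overlap, and the other 4 overlapped there. The 8 helicase genes tested differed by amounts from -0.05 (Mcm2) to 0.79 (Gins2), and none was called. Rrm2, lower in both organs, differed by -0.14 ± 0.39.

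**Figure D5:**
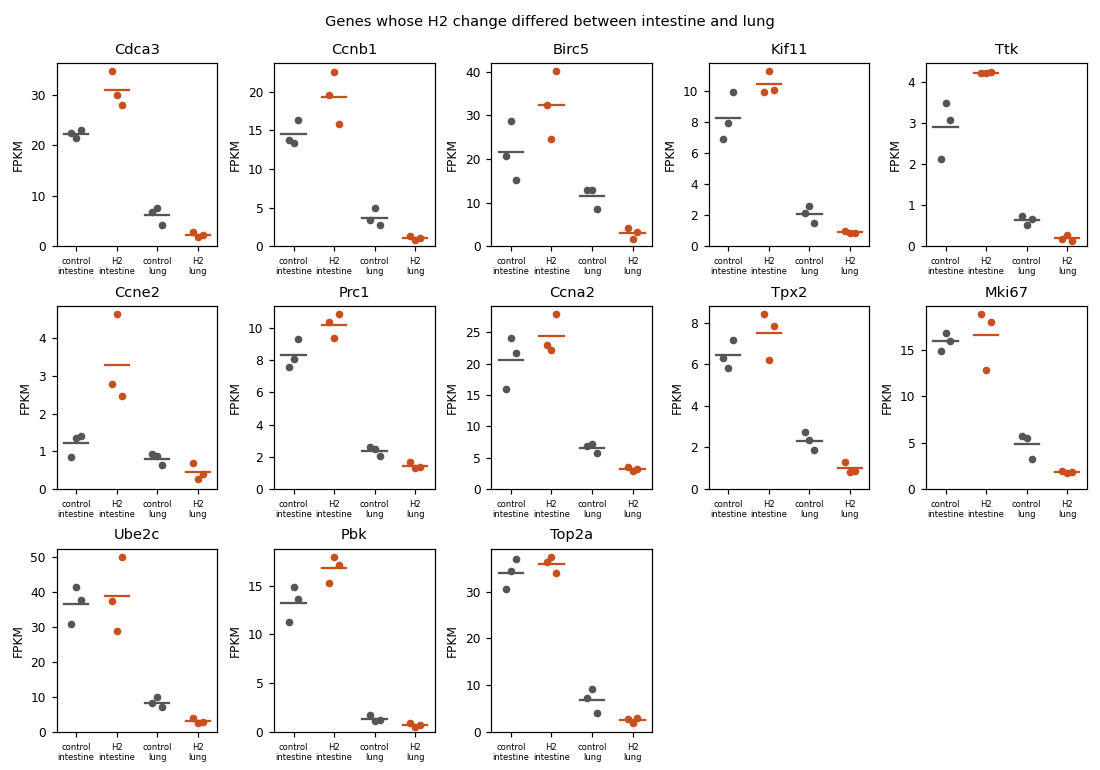
FPKM of the 13 genes whose H2 change was called different between intestine and lung, with 1 point per library, lines at group means and linear axes from 0. In each panel the H2 points of the lung are lower in mean than the control points, and those of the intestine are higher in mean.

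The number of such genes varied with the libraries used. It was 22 without control lung 3, against 3.61% of all genes. It was 2 to 8 when control liver 1 or 3, H2 liver 1, 2 or 3, control intestine 1 or 3, H2 intestine 1 or 2, control lung 1 or 2, or H2 lung 2 or 3 was left out. Liver libraries matter here because the spread was estimated from all 18. The genes called with all 18 were under a mean of 1 FPKM in the liver and could vary little there. The SE of their difference between intestine and lung may therefore be too small. With a pseudocount of 0.1 or quantile normalization it was 2, and with a minimum mean of 5 FPKM or median-of-ratios scaling it was 3. Between liver and lung, 39 of 44 members had the higher change in the liver, with a median difference of 0.48, but none was called, against 0.165% of all genes higher in the liver and 0.0748% lower. Cdca8 came nearest at 1.152 ± 0.25 (adjusted p = 0.0632), then Ccnb1 at 1.05 ± 0.25, Birc5 at 1.67 ± 0.39 and Ccnb2 at 1.11 ± 0.26. These genes were all among the 36 of 46 members under a mean of 1 FPKM in the liver. Where tested here, such members passed the filter only through the other organs. For most of them the difference, and their place in the count of 39, mainly restates the lung change. This comparison uses the same lung libraries as the one above, and it called 12 members without control lung 3, against 2.22% of all genes, and 4 without control liver 2, against 2.62%. Between intestine and liver none was called, against 0.0898% higher and 0.127% lower of all genes. Rrm1 was nearest there, at 0.79 ± 0.20 (adjusted p = 0.0984), followed by Ccne2 at 0.92 ± 0.26. Ccne2 was under a mean of 1 FPKM in the liver, so its difference mainly restates the intestinal change. Without control liver 2 there were 3 called higher in the intestine, against 2.43% of all genes. Without H2 intestine 3 there was 1 called in each direction, against 1.29% of all genes called higher and 1.42% called lower. Unadjusted p in limma was under 0.05 for 21 members between liver and lung, against 12.3% of all genes, and for 7 between intestine and liver, against 15.5% of all genes.

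Other cell cycle genes, in 6 lists with 140 symbols, gave no gene called in limma in any organ alone. In the lung, 19 of 20 tested genes of the other mitotic list were below 0, with a median of -0.37. Of these 20, 9 had unadjusted p under 0.05 in limma, against 23.1% of all genes. Cenpm, a centromere protein, measured 2.98, 4.19 and 2.91 FPKM in control and 0.922, 0.923 and 1.002 FPKM in H2 lungs (-1.149 ± 0.15), and the kinetochore gene Spc24 measured 3.899, 4.94 and 4.62 against 2.297, 2.39 and 2.42 FPKM (-0.70 ± 0.12). Neither overlapped. Racgap1 (-0.73 ± 0.15) and Kif22 (-0.72 ± 0.18), of the spindle, were next. The other DNA replication list had 25 of 33 below 0, with a median of -0.20 and Tipin, of the replication fork, at -0.54 ± 0.14. Medians of the remaining lists were -0.11 over 20 G1 cyclins, Cdks and transcription factors, 0.16 over 11 Cdk inhibitors and pocket proteins, and 0.01 both over 12 p53 targets and over 6 replication-checkpoint genes. The Cdk inhibitor Cdkn1c measured 9.51, 13.3 and 27.8 FPKM in control and 44.99, 37.9 and 39.97 FPKM in H2 lungs (1.36 ± 0.35), and Cdkn2d was at -0.82 ± 0.21. Cdkn1c was higher in each H2 lung, and control lung 3 was the control nearest to them.

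Myc, the growth-promoting transcription factor, measured 22.7, 13.9 and 5.59 FPKM in control and 3.95, 4.72 and 4.02 FPKM in H2 lungs (-1.35 ± 0.43). Its changes were -0.68 ± 0.33 in the intestine and -0.81 ± 0.28 in the liver. On the mean over the organs Myc was called lower (-0.95 ± 0.23, adjusted p = 0.0274), as were the p53 target Plk3 (-0.71 ± 0.17), the helicase loader Cdt1 (-0.36 ± 0.10) and Tipin (-0.26 ± 0.07). Spc25, of the kinetochore, and E2f2 were called higher (0.36 ± 0.10 and 0.29 ± 0.08). Over all genes 5.23% were called lower and 4.39% higher on this mean, so calls of single genes from these lists are common in this comparison. The Cdk inhibitor Cdkn1a, known as p21, was at -0.31 ± 0.17 in the lung, -0.21 ± 0.38 in the intestine and -0.29 ± 0.16 in the liver, and cyclin D1 (Ccnd1) at 0.32 ± 0.17, 0.42 ± 0.56 and 0.09 ± 0.13. None of these was called. In the intestine 31 of 39 other mitotic genes and 23 of 38 other replication genes were above 0, with medians of 0.18 and 0.14. Cenpm was the gene of the 6 lists called between intestine and lung (1.44 ± 0.28), with 3.28, 3.91 and 1.91 FPKM in control and 3.65, 4.71 and 3.19 FPKM in H2 intestine. Among the cell type markers, the neutrophil protease Prtn3 was called in the same comparison (1.39 ± 0.32) and between liver and lung (2.94 ± 0.32). The second difference exceeds the decrease of Prtn3 in the lung, so it also holds a higher mean in H2 than in control liver.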

How the data were processed

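Poly(A) RNA of liver, intestine and lung was sequenced in 18 libraries, 3 per group, extracted with miRNeasy Micro and prepared with TruSeq stranded mRNA kits, per the labels' protocols. The submitters' processing notes name TopHat2 2.0.13, Bowtie2 2.2.3, SAMtools 0.1.19, Cufflinks 2.2.1 and the build mm10, and the values the authors deposited were taken as FPKM per gene from their range and from Cufflinks. No source used here says how reads shared between genes were assigned. Read counts were not used here, and 1 column of per-sample values that repeats control lung 3 was left out.

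Groups came from the sample titles. The values were taken as log2(FPKM + 1) and tested with limma 3.58.1 in R 4.3.3 with a mean-variance trend, two-sided, over genes averaging 1 FPKM or more in the libraries fitted, with Benjamini-Hochberg adjustment over all tested genes and a threshold of 0.05. Each organ was fitted alone. Means over organs, differences between organs and untreated organs came from 1 fit of all 18 libraries, counted as independent. Python 3.11.15 gave sums and motif matches, and the fits were tested on simulated data.

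The members and lists were chosen with earlier results of these data known. Library values were given for members called, up to 12 per comparison, or otherwise for the 8 of smallest p, and for the most abundant member of each of the 10 roles in each organ that tested it. Up to 4 genes of each other list were named by smallest p, with Cdkn1a, Ccnd1 and Myc. Alternatives were pseudocounts of 0.1 and 5, no filter, a minimum mean of 5 FPKM, quantile normalization, median-of-ratios scaling, no trend, a replicate block, 1 fit for the organ contrasts, and leaving out each library.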

Additional observations from a re-analysis of the deposited data

Results flagged for a closer look

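The H2 change differed between intestine and lung, by the interaction contrast in limma, for 13 of the 44 members tested, against 0.771% of all genes, and for Cenpm of the other mitotic list. The count of 13 was 2 to 22 when 1 library was left out, and 2 or 3 with a pseudocount of 0.1, a minimum mean of 5 FPKM, quantile normalization or median-of-ratios scaling. In log2(FPKM + 1), with the change in the intestine minus that in the lung, the differences were 2.25 for Birc5, 1.55 for Ccnb1, 1.55 for Cdca3, 1.44 for Cenpm, 1.27 for Ube2c, 1.26 for Ccne2 and 1.2 for Top2a. They were 1.10 for Ccna2, 1.05 for Mki67, 1.003 for Kif11, 0.92 for Tpx2, 0.89 for Ttk, 0.80 for Pbk and 0.73 for Prc1. Ttk and Ccne2, under a mean of 1 FPKM in the lung, passed the filter only through the intestine. All 14 comparisons rest on the same 12 libraries of these organs and on a spread estimated from all 18. That spread takes in the liver, where the 13 members were under a mean of 1 FPKM.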

How the results depend on the processing

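Of 2402 values of named genes under the alternatives, over 111 gene and comparison pairs, 2390 kept their direction and 12 turned. Under quantile normalization Ube2c (-0.022) and Top2a (-0.027) turned in the intestine and Mcm7 (0.0033) in the lung. The others turned when 1 library was left out, where Ube2c in the intestine ran from -0.14 to 0.25 and was below 0 without control 1 (-0.064) or H2 3. Mcm7 ran from -0.25 to 0.36 in the intestine, below 0 without control 1 (-0.060), control 3 (-0.064), H2 1 or H2 3 (-0.018). In the lung Mcm7 ran from -0.082 to 0.016, above 0 without control 3 or H2 2 (0.0046), and in the liver Mcm6 ran from -0.47 to 0.020, above 0 without control 1.

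With all 18 libraries in 1 fit, 1 member was called higher in the intestine and 15 were called lower in the lung. The spread of that fit takes in the liver, where these members were under a mean of 1 FPKM. The 7 members lower on the mean over organs became 1 with a pseudocount of 5, 2 without the filter and 3 under median-of-ratios scaling. The 13 members with a higher change in intestine than lung became 2 with a pseudocount of 0.1, 3 with a minimum mean of 5 FPKM, 2 under quantile normalization and 3 under median-of-ratios scaling. With a minimum mean of 5 FPKM fewer members were tested, and 20 were higher in untreated intestine than liver, 15 in intestine than lung and 20 in lung than liver. Between untreated lung and liver, quantile normalization gave 18 higher and 3 lower and median-of-ratios scaling 1 lower.

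Leaving out 1 library gave 0 to 3 members called lower in the liver, 0 to 1 in the intestine and 0 to 28 in the lung, and 1 to 15 lower on the mean. For intestine minus lung it gave 2 to 22 higher, for intestine minus liver 0 to 3 higher and 0 to 1 lower, for liver minus lung 0 to 12 higher, and for untreated lung against liver 0 to 1 lower. A lone arm was never left, since 2 libraries remained in each group.

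Replicate numbers were not treated as pairs in the main fits. Deviations of same-numbered H2 and control libraries correlated between -0.11 and 0.33 over 9 pairs, with 3 over 0.1. Those of differently numbered libraries correlated between -0.29 and 0.25. With 3 libraries per group, these values cannot show whether the samples were paired. The numbers are those of the titles, and the descriptions of H2 replicates 2 and 3 carry other numbers. A replicate block gave 7 members in place of 13 for intestine minus lung. The FPKM values carry no read counts, so genes under 1 FPKM, most members in the liver, rest on few fragments.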
